A study of Mus musculus with 6 samples.

Results

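The 10 genes described here encode the enzymes that hydroxylate collagen inside the cell and cross-link it outside. They were chosen by gene symbol from the 22564 genes of the deposited table, and all 10 were found. They are P4ha1, P4ha2 and P4ha3 (catalytic alpha subunits of collagen prolyl 4-hydroxylase), Plod1, Plod2 and Plod3 (lysyl hydroxylases), and Lox, Loxl1, Loxl2 and Loxl3 (lysyl oxidases). RNA came from cultures labelled EOMA, a mouse endothelioma line, that were given 2 µM DHTS (3 libraries) or the solvent DMSO (3 libraries) for 24 h in normoxic culture. DHTS is 15,16-dihydrotanshinone I, a plant tanshinone, and the series title links it to infantile hemangioma and to hypoxia-inducible factor 1 (HIF-1). Both groups are of 1 cell line, and nothing in the labels says that the 3 libraries of a group were separate cultures. The p-values therefore rest only on how far these libraries lie apart, and that spread may be technical.

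A collagen chain is modified in the endoplasmic reticulum before it folds. Prolyl hydroxylases give the triple helix its thermal stability, and lysyl hydroxylases make the hydroxylysines that carry sugars and set the kind of cross-link. Both enzyme classes use oxygen, iron, 2-oxoglutarate and ascorbate. Lysyl oxidases are secreted copper enzymes that oxidise lysines of collagen and elastin, after which the chains cross-link and the matrix stiffens. In human cells P4HA1, P4HA2, PLOD2 and LOX are known targets of HIF-1, which binds DNA at the hypoxia response element.

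The promoters of members found in RefSeq (GRCm38.p6), apart from that of P4ha3, are shown because the series asks about HIF-1. Each window runs from 250 bases before the start of transcription to 50 bases from it, written 5′ to 3′ on the strand of the gene. Capitals mark the 5-letter cores ACGTG and GCGTG of the hypoxia response element, read on both strands, so that CACGT and CACGC in capitals are cores on the opposite strand. The table held 5 of the 10 members and lacked Plod2, Lox, Loxl1, Loxl2 and Loxl3. The window of P4ha3, which had neither core, is not printed. P4ha1 and Plod1 fell with DHTS, while P4ha2 and Plod3 passed the test in only 1 of the deposited units as deposited, as described further on.
P4ha1, chr10:59323046-59323345, plus strand: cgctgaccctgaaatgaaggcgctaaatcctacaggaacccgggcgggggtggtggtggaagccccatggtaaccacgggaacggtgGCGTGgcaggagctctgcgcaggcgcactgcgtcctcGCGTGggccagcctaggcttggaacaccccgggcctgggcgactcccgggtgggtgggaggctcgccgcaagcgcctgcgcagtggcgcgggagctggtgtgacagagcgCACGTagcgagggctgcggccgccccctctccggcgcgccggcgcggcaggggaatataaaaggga
P4ha2, chr11:54100674-54100973, plus strand: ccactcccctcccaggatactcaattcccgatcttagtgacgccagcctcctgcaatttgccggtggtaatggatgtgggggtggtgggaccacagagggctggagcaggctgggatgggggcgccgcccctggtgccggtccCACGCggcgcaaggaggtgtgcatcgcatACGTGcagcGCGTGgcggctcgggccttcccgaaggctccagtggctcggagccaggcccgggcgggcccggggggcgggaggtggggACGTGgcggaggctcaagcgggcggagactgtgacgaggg
Plod1, chr4:147936727-147937026, minus strand: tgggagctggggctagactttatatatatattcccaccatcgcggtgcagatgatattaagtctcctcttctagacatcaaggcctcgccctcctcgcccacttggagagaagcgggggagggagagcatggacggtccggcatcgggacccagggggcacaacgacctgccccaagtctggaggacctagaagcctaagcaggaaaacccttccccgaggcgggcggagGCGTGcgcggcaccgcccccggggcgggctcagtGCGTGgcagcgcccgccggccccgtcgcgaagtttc
Plod3, chr5:136986769-136987068, plus strand: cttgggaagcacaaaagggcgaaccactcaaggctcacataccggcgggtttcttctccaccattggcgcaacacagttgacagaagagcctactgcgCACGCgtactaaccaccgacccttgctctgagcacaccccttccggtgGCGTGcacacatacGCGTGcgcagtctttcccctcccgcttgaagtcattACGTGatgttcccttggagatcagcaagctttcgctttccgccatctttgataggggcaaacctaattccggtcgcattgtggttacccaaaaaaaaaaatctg

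At least 1 core was present in these 4 windows. P4ha1 held 1 ACGTG and 2 GCGTG, with first letters at −163, −126 and −16 relative to the start. P4ha2 held 2 of each core, at −107, −78, −69 and 10. These positions count from the RefSeq start at 54100924, while a second annotation, GENCODE, begins the gene upstream of this window, at 54100095. The Plod1 window had 2 GCGTG, at −20 and 14, and no ACGTG. Plod3 held 1 ACGTG, at −54, and 3 GCGTG, at −152, −104 and −90. The remaining window, that of P4ha3, had neither. Among 32851 promoter windows of this length in the table, 19.6% held ACGTG, 32.4% held GCGTG and 43.8% held either, so a match is common and is a description of letters, not of binding.

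The files give FPKM, a fragment number divided by transcript length and by library size, in which levels of different genes can be compared. A second block gives fragments per gene divided by 1 factor per library, here called scaled fragments, which is not divided by length. Estimated fragments per library numbered 9343224 to 11113874 with DHTS and 9753814 to 12255251 with DMSO. The test was run with limma over 11416 genes with a mean of at least 1 FPKM, on log2(FPKM + 1), on which scale every fold change on FPKM is given. DHTS raised 28.2% and lowered 21.9% of these genes past an adjusted p of 0.05 (Benjamini-Hochberg). Under quantile normalization 2551 genes were higher and 3411 lower, against 3218 higher and 2502 lower without it, and the middle log2 fold change was −0.07, against 0.03. Of 12 endothelial markers only Cd34 and Egfl7 were abundant enough for the test. Cd34 had a mean of 102 FPKM with DHTS and 77.6 with DMSO, and Egfl7 24.4 and 29.2. Vwf (mean 1.01 with DHTS and 0.0497 with DMSO), Pecam1 and Tek were too low to test. The defining genes Cdh5 and Kdr stayed under 0.1 FPKM, and Clec14a, Emcn, Fli1, Icam2 and Tie1 had 0 FPKM in each of the 6 libraries. These low and absent genes go against the label of an endothelial line, while Cd34 and Egfl7 do not. Of 10 epithelial markers 6 were tested, led by Krt18 at 197 ± 4.89 FPKM with DHTS and 136 ± 2.79 with DMSO (SD, n = 3 each, here and below). Epcam and Elf3 were lower with DHTS (log2 fold changes −0.46 and −0.80), and the epithelial genes Cdh1, Krt14, Krt19 and Cldn7 were too low to test, with Cdh1 at most at 0.144 FPKM with DHTS and 0.0648 with DMSO.

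Of the 10 members, 9 passed the filter on low values. DHTS-treated cells had 5 of these 9 lower (P4ha1, Plod1, Lox, Loxl1 and Loxl2) and 1 higher (Plod2) than DMSO cells, beside 21.9% and 28.2% of all tested genes. The other 3, P4ha2, Plod3 and Loxl3, did not pass on FPKM. On scaled fragments 7 of the 9 were lower and 1 higher, beside 28.6% and 33.9% of all genes tested on that unit. The median log2 fold change of the 9 was −0.51, against 0.03 over all tested genes. Groups did not overlap in 6 members that were lower and 1 that was higher, beside 26.8% and 33.0% of all tested genes. In bulk RNA, fewer cells with a transcript and less of it per cell cannot be told apart.

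**Figure D1:**
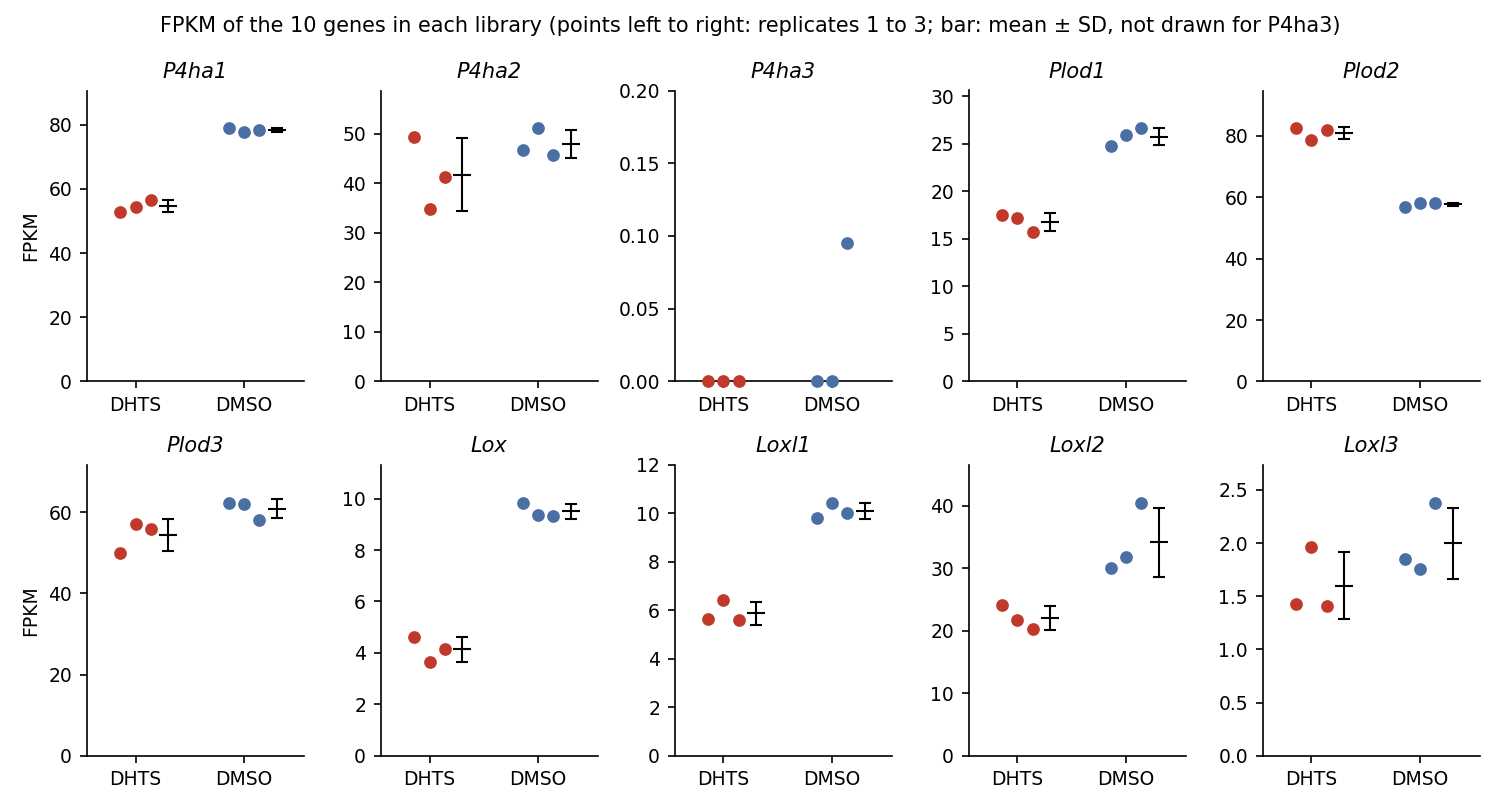
FPKM of each of the 10 genes in every library, DHTS in red and DMSO in blue, each panel with its own axis from 0; the black bar is the mean and SD of 3 libraries. Plod2 sits between 78.7 and 82.4 FPKM with DHTS, above its DMSO libraries, while P4ha1, Plod1, Lox, Loxl1 and Loxl2 sit below theirs and P4ha3 is near 0 throughout.

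P4ha1 encodes the main catalytic subunit of collagen prolyl hydroxylase in most cells. Its level was 52.9, 54.2 and 56.6 FPKM after DHTS and 78.8, 77.7 and 78.3 FPKM after DMSO. Every DHTS library was below every DMSO library, and the DMSO values lay within about 1 FPKM of each other. The level was 0.697 times that with DMSO (54.6 ± 1.85 FPKM with DHTS and 78.3 ± 0.564 with DMSO; log2 fold change −0.51, SE 0.04, adjusted p = 5.1e-05). Behind these values stood 1587 to 1798 estimated fragments per DHTS library and 2312 to 2899 per DMSO library. The gene lies on chromosome 10 at 59323296 to 59373304 (mm10, plus strand).

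P4ha2, on chromosome 11 at 54100095 to 54131665, encodes the second catalytic subunit and is abundant in cartilage and endothelium. Its level was 49.3, 34.7 and 41.2 FPKM with DHTS and 46.7, 51.0 and 45.7 FPKM with DMSO. DHTS replicate 1 lay among the DMSO libraries and the other two lay below them. On FPKM the difference did not pass (41.7 ± 7.34 FPKM with DHTS and 47.8 ± 2.84 with DMSO; log2 fold change −0.20, 95% interval −0.49 to 0.08, adjusted p = 0.199). Without DHTS replicate 1 it did, at −0.33 (adjusted p = 0.0284, range over alternatives 2.3e-09 to 0.507).

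The scaled fragments of P4ha2 gave another picture. They numbered 631, 665 and 654 with DHTS and 991, 980 and 935 with DMSO, so that the groups were far apart. Their log2 fold change was −0.58 (SE 0.05, 95% interval −0.68 to −0.47, adjusted p = 2.3e-09), close to that of P4ha1 on the same unit (−0.54, adjusted p = 2.7e-11). Scaled fragments per FPKM of P4ha2 were 12.8, 19.2 and 15.9 in the DHTS libraries and 21.2, 19.2 and 20.5 in the DMSO libraries. Those of P4ha1 ran only from 31.4 to 31.6 with DHTS and from 31.8 to 32.1 with DMSO. The coefficient of variation of this ratio over the 6 libraries was 17.6% for P4ha2, and 6.53% of tested genes varied more, with a median of 2.05% over all tested genes. The fragments of P4ha2 were whole numbers (within 0.1) in all 6 libraries, and no other gene shares its deposited locus. GENCODE lists 15 transcripts of P4ha2, of which 8 are coding with exonic lengths of 352 to 2263 bases, and P4ha1 has 3, all coding, of 2387 to 4043 bases. Whether the length assigned to P4ha2 transcripts accounts for the gap between the units was not tested.

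**Figure D2:**
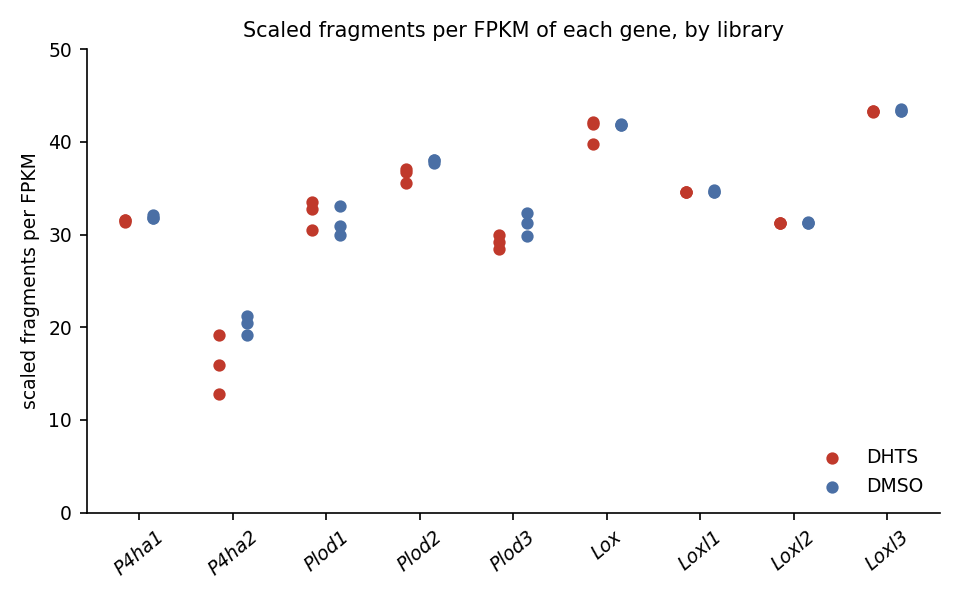
Scaled fragments per FPKM of the 9 tested genes, each point a library, DHTS in red left of DMSO in blue. The points of P4ha2 spread from 12.8 to 21.2, while those of Loxl1, Loxl2 and Loxl3 lie almost on top of each other.

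P4ha3, the third alpha subunit, was at or near 0. It was listed at 0, 5.11e-07 and 0 FPKM with DHTS and at 0, 0 and 0.0953 FPKM with DMSO, the last of these resting on 2 fragments. No fold change is given, and the exact two-sided permutation test of the 6 values gave p = 1, where the smallest p that 3 against 3 libraries allow is 0.10. A count of 0 allows up to 3 fragments in a library, by counting error only. P4ha1 and P4ha2 thus made up the alpha subunit transcripts seen at this depth. P4ha1 held 56.9 ± 4.69% of the family's FPKM with DHTS and 62.1 ± 1.51% with DMSO. On scaled fragments its share was 72.6 ± 0.673% with DHTS and 72.0 ± 0.547% with DMSO, so the lower mean share with DHTS was seen on FPKM only, where the libraries of the groups overlapped. The summed level was 102.2, 88.9 and 97.8 FPKM with DHTS and 125.5, 128.7 and 124.1 FPKM with DMSO. The family sum was lower in each DHTS library than in each DMSO library.

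The lysyl hydroxylases moved in opposite directions. Plod2 encodes the enzyme that hydroxylates the telopeptides, the chain ends where stable pyridinoline cross-links form, and lies on chromosome 9 at 92542223 to 92608428. Its values were 82.4, 78.7 and 81.9 FPKM with DHTS and 57.0, 58.0 and 58.0 FPKM with DMSO. Every DHTS library lay above every DMSO library, with a gap many times the spread within a group. The level was 1.40 times that with DMSO (81.0 ± 2.01 FPKM with DHTS and 57.7 ± 0.595 with DMSO; log2 fold change 0.48, SE 0.04, adjusted p = 4.9e-05). Scaled fragments gave 0.43 (SE 0.03, adjusted p = 1.7e-10).

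Plod1 encodes the enzyme that hydroxylates lysines within the triple helix and is mutated in the kyphoscoliotic form of Ehlers-Danlos syndrome in humans. The gene lies on chromosome 4 at 147909753 to 147936767, on the minus strand. DHTS cells had 17.5, 17.2 and 15.7 FPKM and DMSO cells 24.8, 25.9 and 26.6 FPKM, with no overlap. The level was 0.651 times that with DMSO (16.8 ± 0.963 FPKM with DHTS and 25.8 ± 0.936 with DMSO; log2 fold change −0.59, SE 0.06, adjusted p = 0.00024).

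Plod3, on chromosome 5 at 136987019 to 136996648, encodes a lysyl hydroxylase that also transfers sugars to hydroxylysine. Its level was 49.9, 57.2 and 56.0 FPKM with DHTS and 62.3, 62.1 and 58.2 FPKM with DMSO. The DHTS libraries lay below the DMSO libraries, but DHTS replicate 2 and DMSO replicate 3 were only about 1 FPKM apart. The difference did not pass on FPKM (54.4 ± 3.88 FPKM with DHTS and 60.9 ± 2.34 with DMSO; log2 fold change −0.16, SE 0.06, adjusted p = 0.065). It passed on scaled fragments, at −0.26 (adjusted p = 2.0e-05), and under median-ratio scaling, at −0.20 (adjusted p = 0.0346, range over alternatives 2.0e-05 to 0.182). Plod3 shares a deposited locus with Znhit1, which overlaps it by 1003 bases on the opposite strand, and the sources used here do not say that counting used strand.

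With Plod2 higher and its relatives lower or not past the test, the make-up of the family differed between the groups. Plod2 held 55.0%, 51.4% and 53.3% of the family's FPKM with DHTS and 39.5%, 39.7% and 40.6% with DMSO. The share of Plod1 was 11.0 ± 0.745% with DHTS and 17.9 ± 0.731% with DMSO. Plod3 took 35.7 ± 2.12% with DHTS, against 42.2 ± 1.31% with DMSO. The ratio of Plod2 to Plod1 was 4.70, 4.58 and 5.21 with DHTS and 2.30, 2.24 and 2.18 with DMSO. The summed level of the family was 149.9, 153.0 and 153.5 FPKM with DHTS and 144.1, 146.0 and 142.8 FPKM with DMSO, a ratio of means of 1.05. The shares carry no test of their own, since they are made of the levels already tested.

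**Figure D3:**
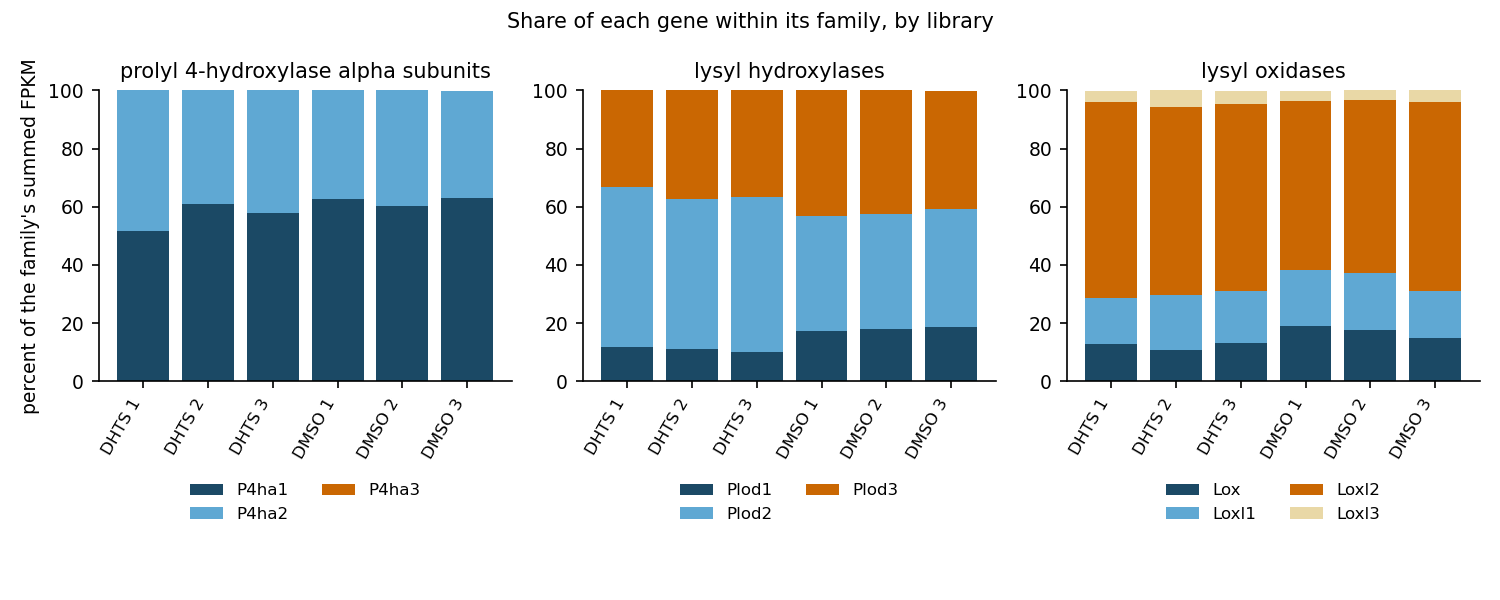
Percent of each family's summed FPKM held by each gene, 1 bar per library, DHTS libraries left of DMSO libraries. Loxl4 is not counted in the lysyl oxidase bars. Plod2 takes 51.4% to 55.0% of the lysyl hydroxylase bars with DHTS and 39.5% to 40.6% with DMSO, and Loxl2 is the widest band of each lysyl oxidase bar.

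Lox, the founding lysyl oxidase, had the largest fall of the 9 tested members, on FPKM and on scaled fragments. Cells given DHTS had 4.63, 3.66 and 4.14 FPKM of it, and cells given DMSO had 9.84, 9.35 and 9.33 FPKM. No DHTS library reached the level of any DMSO library. The level was 0.436 times that with DMSO (4.14 ± 0.483 FPKM with DHTS and 9.51 ± 0.292 with DMSO; log2 fold change −1.03, SE 0.09, adjusted p = 0.00010). The values rest on 146 to 193 estimated fragments per DHTS library and 363 to 455 per DMSO library. On scaled fragments the log2 fold change was −1.22 (SE 0.10). The gene lies on chromosome 18 at 52516067 to 52529867 and overlaps an antisense gene by 1207 bases.

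Loxl1, which in mice is needed for the upkeep of elastic fibres, lies on chromosome 9 at 58287738 to 58313186. Its level was 5.64, 6.42 and 5.58 FPKM with DHTS and 9.81, 10.4 and 10.0 FPKM with DMSO, again with no overlap. The level was 0.582 times that with DMSO (log2 fold change −0.69, SE 0.08, adjusted p = 0.00035).

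Loxl2 cross-links collagen IV of basement membranes and is known for a part in angiogenic sprouting. Its values were 24.2, 21.8 and 20.3 FPKM with DHTS and 30.1, 31.8 and 40.5 FPKM with DMSO. DMSO replicate 3 was well above the other two DMSO libraries, and the groups did not overlap. The level was 0.647 times that with DMSO (22.1 ± 1.94 FPKM with DHTS and 34.1 ± 5.58 with DMSO; log2 fold change −0.60, SE 0.12, adjusted p = 0.0051). The call held without each library in turn, with an adjusted p of at most 0.0197. Over all alternatives the adjusted p ran from 0.00318 to 0.0426, and the log2 fold change was smallest without DMSO replicate 3, at −0.47. Loxl2, on chromosome 14 at 69609068 to 69695834, shares its deposited locus with 6 other genes. Its fragments were whole in 1 of 6 libraries, and the source of the fractions was not tested. An antisense gene overlaps it by 74219 bases.

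Loxl3, a further member of the family, was the lowest of the tested members. It had 1.42, 1.97 and 1.41 FPKM with DHTS and 1.85, 1.76 and 2.38 FPKM with DMSO. DHTS replicate 2 lay among the DMSO libraries. The difference did not pass (1.599 ± 0.317 FPKM with DHTS and 1.996 ± 0.335 with DMSO; log2 fold change −0.21, 95% interval −0.54 to 0.13, adjusted p = 0.26). It passed under quantile normalization, at −0.47 (adjusted p = 0.0337, range over alternatives 0.0337 to 0.57). With 54 to 120 estimated fragments per library, the interval does not exclude a fall as large as that of P4ha1. Loxl3, on chromosome 6 at 83034173 to 83052562, shares its deposited locus with Aup1 and Htra2, and Htra2 overlaps it by 1297 bases on the opposite strand.

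Together Lox, Loxl1, Loxl2 and Loxl3 summed to 35.9, 33.8 and 31.5 FPKM with DHTS and 51.6, 53.4 and 62.2 FPKM with DMSO. The ratio of means was 0.605. Loxl2 held 65.5 ± 1.68% of the sum with DHTS and 61.0 ± 3.59% with DMSO, and Lox held 12.3 ± 1.28% with DHTS and 17.2 ± 2.06% with DMSO. The remaining gene of the family, Loxl4, is not among the 10, so this sum and these shares leave it out. Loxl4 was at 16.0, 14.2 and 15.7 FPKM with DHTS and 18.1, 18.1 and 19.6 FPKM with DMSO (log2 fold change −0.27, SE 0.07, adjusted p = 0.0156). It lay above Lox and Loxl1 in each library, so shares of the whole family would be lower. The differences in share between the groups therefore hold only for the sum without Loxl4. Leaving out DMSO replicate 3 ended this call (adjusted p = 0.0539, range over alternatives 4.0e-05 to 0.0539).

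**Figure D4:**
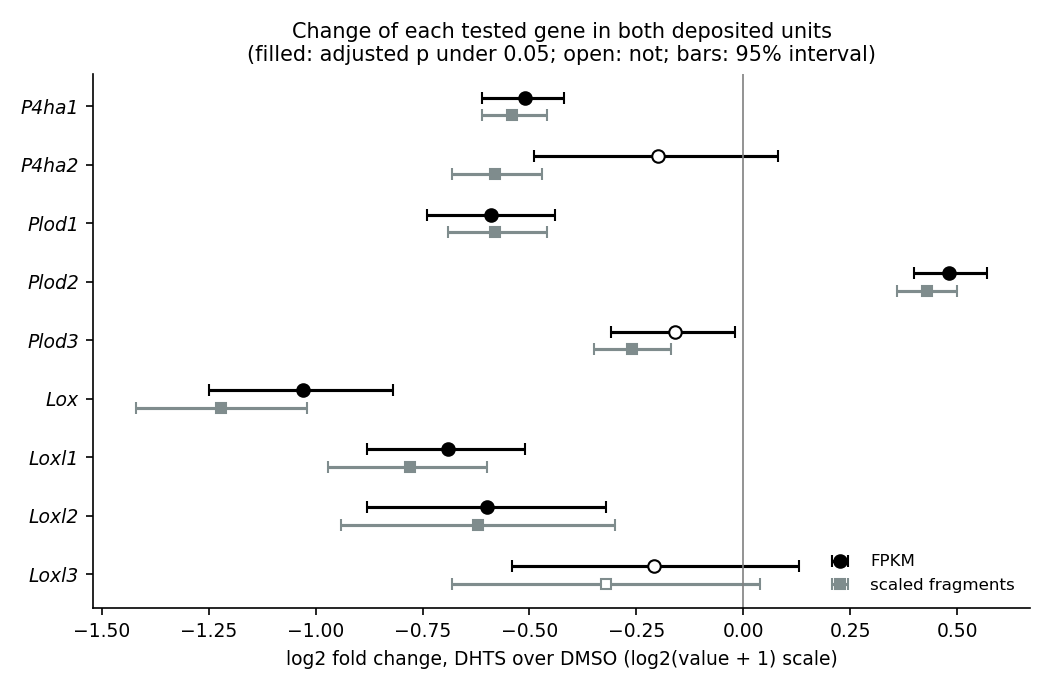
Log2 fold change of the 9 tested genes, DHTS over DMSO, on FPKM (circles) and on scaled fragments (squares), with 95% intervals; filled marks passed an adjusted p of 0.05. Plod2 alone lies right of 0, and P4ha2 is where the units are farthest apart, at −0.20 and −0.58.

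The order of the levels with DHTS was Plod2, P4ha1, Plod3, P4ha2, Loxl2, Plod1, Loxl1, Lox, Loxl3 and P4ha3. With DMSO it was P4ha1, Plod3, Plod2, P4ha2, Loxl2, Plod1, Loxl1, Lox, Loxl3 and P4ha3. The ranges of neighbours over 3 libraries overlapped for P4ha1 and Plod3 with DHTS (52.9 to 56.6 and 49.9 to 57.2 FPKM) and for Loxl1 and Lox with DMSO (9.81 to 10.4 and 9.33 to 9.84 FPKM). They nearly touched for Plod3 and P4ha2 with DHTS (49.9 to 57.2 and 34.7 to 49.3 FPKM) and for Plod3 and Plod2 with DMSO (58.2 to 62.3 and 57.0 to 58.0 FPKM), so neither pair is separated beyond its spread. The ranges of the other neighbours did not overlap. Plod2 was above 88.4% of tested genes with DHTS and above 82.7% with DMSO. P4ha1 was above 81.5% with DHTS and 88.0% with DMSO.

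The 6 libraries were next searched for genes whose values followed those of the member with the highest mean over all 6 libraries in each family (with DMSO alone, Plod3 was above Plod2). Likeness was the root mean square difference of log2(FPKM + 1) over the 6 libraries after centring each gene, which with 2 groups mostly reads the size of the treatment difference. Nearest to Plod2 were Atxn10, Kctd10 and Aggf1 (differences of 0.0215, 0.0217 and 0.0223), which rose by 0.48 to 0.50 on the log2 scale. Nearest to P4ha1 were Uqcr11, Klhl2 and Hif1a (0.0206, 0.0217 and 0.0230). Hif1a, which encodes the alpha subunit of HIF-1, was at 55.0, 54.8 and 59.6 FPKM with DHTS and 84.0, 80.6 and 81.4 FPKM with DMSO (log2 fold change −0.53, adjusted p = 9.3e-05). Loxl2 had no neighbour as close, with Prkar1b, H60b and Samd9l at 0.0809 to 0.0875.

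Collagen chains, the substrates of these enzymes, had 13 of 35 tested, with 3 higher and 8 lower at a median log2 fold change of −0.46, against 0.03 over all tested genes. On scaled fragments 7 were higher and 10 lower of 19 tested. Beside this and the lists below stand 28.2% higher and 21.9% lower of all tested genes on FPKM. On scaled fragments these shares were 33.9% and 28.6%. Fibrillar type I and III collagens were hardly expressed. Col1a1 stood at 0.562 ± 0.0933 FPKM with DHTS and 0.778 ± 0.0832 with DMSO, and Col3a1 was listed at 0 in all 6 libraries. Col5a1, a chain of type V collagen, fell to 5.74 ± 0.165 FPKM with DHTS, against 16.8 ± 0.458 with DMSO (log2 fold change −1.40, adjusted p = 3.6e-06). The type VI chains Col6a2 and Col6a1 fell as well, with log2 fold changes of −1.14 and −1.02. Which of Col5a1, Col6a2 and Col6a1 fell most depended on the scale, since scaled fragments gave −1.72 for Col6a2 and −1.55 for Col5a1. Chains under the filter on FPKM are not ranked here. Among them, Col4a3 and Col4a4 had lower means with DHTS, and Col2a1 and Col27a1 had higher means. Col9a3 was higher at 3.91, 3.34 and 3.87 FPKM with DHTS and 0, 0.111 and 1.95 with DMSO (adjusted p = 0.0110), a call lost without the filter on low values (adjusted p = 0.0764, range over alternatives 0.00011 to 0.0764). Chosen after their values were seen, Col4a1 and Col4a2 of the basement membrane fell, with log2 fold changes of −0.72 and −0.92, and Col18a1, the most abundant of the 35 chains, rose by 0.38 (200 ± 5.01 FPKM with DHTS and 153 ± 3.21 with DMSO, adjusted p = 9.3e-05).

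Partners of the hydroxylases in the endoplasmic reticulum had 14 of 15 genes tested, with 3 higher and 9 lower at a median of −0.33. P4hb, the protein disulfide isomerase that is the beta subunit of collagen prolyl hydroxylase, was at 212.5, 212.8 and 204.2 FPKM with DHTS and 345.3, 333.9 and 343.9 FPKM with DMSO (log2 fold change −0.70, SE 0.03, adjusted p = 3.6e-06). It exceeded the alpha subunits in each library: the sum of P4ha1 and P4ha2 over P4hb was 0.459 ± 0.0360 with DHTS and 0.370 ± 0.0136 with DMSO. This FPKM ratio takes in P4ha2, on which the units differed. The alpha subunit sum with DHTS was 0.764 times that with DMSO on FPKM and 0.684 times on scaled fragments. The log2 fold change of P4hb was −0.70 on both units. The prolyl 3-hydroxylase gene P3h2, named Leprel1 in the table, fell with a log2 fold change of −1.62. It was at 3.97 ± 0.292 FPKM with DHTS and 14.4 ± 2.75 with DMSO. The peptidyl-prolyl isomerase gene Fkbp7 fell by 0.89, and Fkbp10, a chaperone that assists telopeptide hydroxylation, rose by 0.83 at a low level (1.68 ± 0.247 FPKM with DHTS and 0.515 ± 0.269 with DMSO). The log2 fold change of Fkbp10 was between 0.44 and 2.02 over the alternatives, highest on scaled fragments. Serpinh1, the collagen chaperone, and Ppib, a cyclophilin, fell, with log2 fold changes of −0.37 and −0.47 (both genes chosen with their values in view).

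Of 8 genes of procollagen propeptide processing 4 were tested, with 0 higher and 2 lower at a median of −0.57. On scaled fragments 1 was higher and 3 lower of 5. Pcolce, which enhances removal of the C-terminal propeptide, fell to 113 ± 1.35 FPKM with DHTS, against 240 ± 9.64 with DMSO (log2 fold change −1.08, adjusted p = 1.15e-06), and the propeptidase gene Adamts2 fell by 0.68. Bmp1, the protease that also activates pro-lysyl oxidase, was at 34.5 ± 0.932 FPKM with DHTS and 31.8 ± 1.48 with DMSO (adjusted p = 0.113), and was named after its values were seen. Elastic fibre genes were mostly silent: 2 of 10 were tested and neither passed on FPKM, while on scaled fragments 2 of 4 were lower, and Eln, the elastin gene, was listed at 0 in all 6 libraries. Efemp2, which bridges lysyl oxidase and elastin, stood at 63.0 ± 4.62 FPKM with DHTS and 71.2 ± 4.46 with DMSO (adjusted p = 0.0685, range over alternatives 4.4e-05 to 0.208). It passed on scaled fragments, under median-ratio scaling (adjusted p = 0.0443), with the replicate block (adjusted p = 0.0186) and without DHTS replicate 2 (adjusted p = 0.0254).

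Copper supply genes, not all of which serve the lysyl oxidases, had 5 of 6 tested, with 2 higher and 1 lower at a median of 0.09. On scaled fragments 2 of 6 were higher and 2 lower. The shares over all tested genes were 28.2% higher and 21.9% lower on FPKM, and 33.9% and 28.6% on scaled fragments. Ccs, the copper chaperone of superoxide dismutase, was at 104, 101 and 89.8 FPKM with DHTS and 44.4, 37.9 and 39.2 FPKM with DMSO (log2 fold change 1.26, SE 0.08, adjusted p = 1.9e-05). Atox1, which hands copper to the pumps of the secretory route, rose by 0.46. The copper importer gene Slc31a1 fell by 0.21, a call lost without DHTS replicate 1, DHTS replicate 2 or DMSO replicate 2 (adjusted p = 0.0594, 0.0533 and 0.0605, range over alternatives 0.00049 to 0.0605). Atp7a, the pump that loads lysyl oxidases, stood at 5.005 ± 0.873 FPKM with DHTS and 5.80 ± 0.371 with DMSO (adjusted p = 0.227) and was named after its values were seen.

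**Figure D5:**
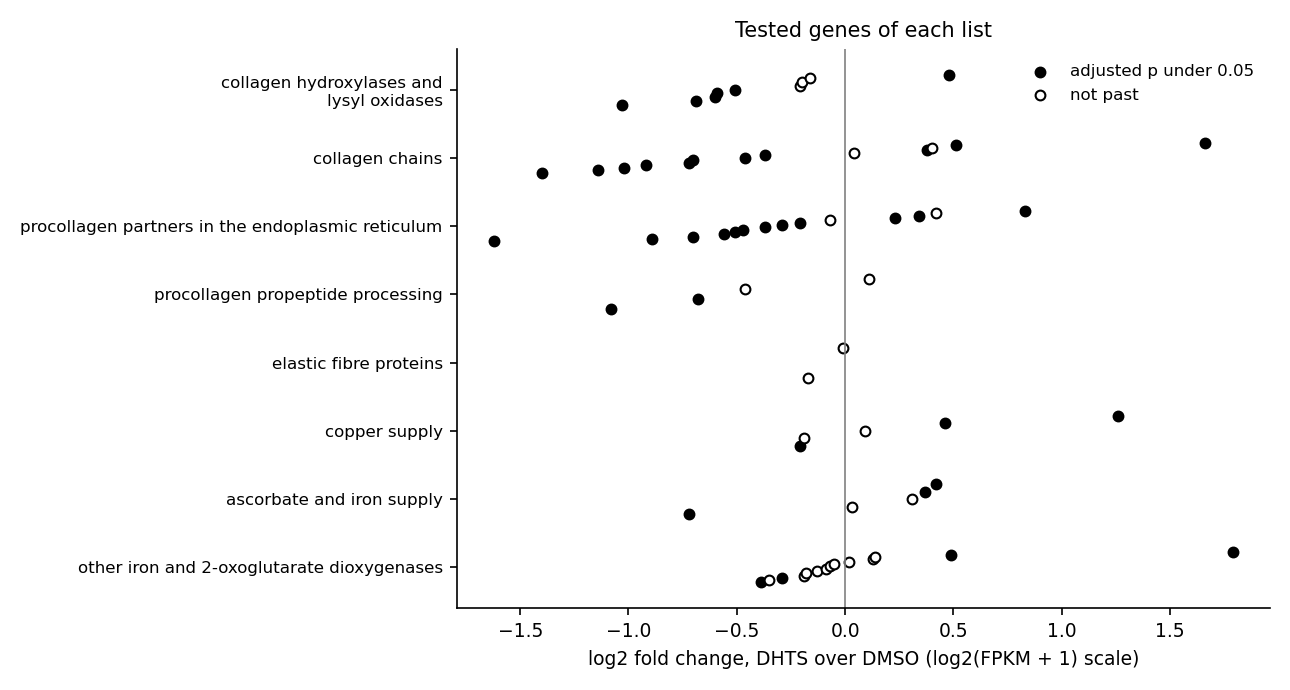
Log2 fold change, DHTS over DMSO, of each tested gene of the 10 described here and of 7 related lists; filled points passed an adjusted p of 0.05 and the vertical spread within a list only separates points. Points of the first 3 lists from the top lie mainly left of 0, with medians of −0.51, −0.46 and −0.33. So do the 4 of procollagen propeptide processing, with a median of −0.57, and those of copper supply lie on both sides.

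Markers of other cell types moved as well. The summed FPKM of 7 smooth muscle and pericyte markers was 20.8 to 21.9 with DHTS and 31.5 to 33.9 with DMSO, 2 of them being tested and both lower (Tagln and Pdgfrb). The 10 epithelial markers summed to 257 to 266 with DHTS and 215 to 220 with DMSO, most of it Krt18, with Krt18 and Krt8 higher and Epcam and Elf3 lower. Fibroblast markers summed to 43.9 to 44.0 with DHTS and 46.3 to 49.6 with DMSO, nearly all of it Pdpn, while Lum, Dpt, Fap and Col3a1 were listed at 0 throughout. The endothelial markers summed to 118 to 140 with DHTS and 106 to 108 with DMSO. Of the leukocyte markers, 5 were matched, summing to 4.28 to 4.72 with DHTS and 7.72 to 9.02 with DMSO, mostly Csf1r, with Cd3e and Itgam at 0 throughout. The part of these markers in the changes of the collagen enzymes was not tested.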

How the data were processed

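RNA of 3 DHTS and 3 DMSO libraries was measured. The tools named in the submitters' processing notes are Cufflinks, Cuffdiff 2.2.1, HISAT2 2.0.4 and fastp 0.20.0, and the build is mm10; for their roles, the annotation and any use of strand, the answer is: not given in the sources used here. FPKM values were scaled by the authors to length and library size. The block headed as counts, per the file headers, holds a signal as deposited: estimated fragments divided by 1 factor per library. Once each factor was estimated, 92.7% to 93.0% of values above 0 lay within 0.1 of a whole fragment; no count model was fitted because the rest are fractional.

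Genes with a mean of at least 1 FPKM over the 6 libraries entered limma (version 3.58.1, under R 4.3.3) as log2(FPKM + 1), a pseudocount of 1, with trend and robust options, treatment as the only term, two-sided tests and Benjamini-Hochberg adjustment over 11416 genes. This scale understates changes of low genes. SE is moderated and SD is over 3 libraries. The fit was tested on simulated data drawn with a fixed length per gene. That test does not cover a gene such as P4ha2, whose scaled fragments per FPKM varied between libraries. Libraries within a group were not copies of each other (chi-square over degrees of freedom 2.64 to 3.34). Alternatives were another pseudocount, filters, scalings and variance model, a replicate block, leaving out each library, leaving out 75 genes of a chromosome 8 locus listed at 0 in every DMSO library (none a member), and scaled fragments with a mean of at least 10. Named genes were the members, up to 4 called genes of each related list with the largest change (or the 2 most expressed), Loxl4, Hif1a and the 3 nearest genes to the member of each family with the highest mean over all 6 libraries. Any other gene given with values, cell type markers included, was named with its values in view, and not every one is marked so. Members and lists were chosen with earlier results of these data known. Gene coordinates are from GENCODE M21 (mm10), counted from 1; promoters are from RefSeq.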

Additional observations from a re-analysis of the deposited data

How the results depend on the processing

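The calls of P4ha1, Plod1, Plod2, Lox, Loxl1 and Loxl2 kept their direction and stayed past the threshold in each of the 15 alternatives. Over the 9 tested members no alternative reversed a direction. The other 3 passed under 5 alternatives in all, P4ha2 on scaled fragments and without DHTS replicate 1, Plod3 on scaled fragments and under median-ratio scaling, and Loxl3 under quantile normalization; the cause was not tested. Members called lower numbered 5 to 6 and members called higher 1 when each library was left out, and all genes numbered 2176 to 2306 lower and 2853 to 2925 higher. Scaled fragments gave 7 members lower and 1 higher. With a replicate block 3053 genes were higher and 2384 lower and no member changed its call. Correlations of deviations between same-numbered libraries were −0.0451, 0.0634 and 0.0124, inside the range of unlike-numbered pairs, −0.0805 to 0.0751. No shared deviation was seen, but such values cannot tell whether same-numbered libraries were handled together. Among the other named genes 24 alternatives lost a call and 4 gained one, and Ltbp4, an elastic fibre gene that did not pass, ran from −0.14 to 0.11 as libraries were left out and changed sign without DHTS replicate 1 (0.01), DHTS replicate 3 (0.11), DMSO replicate 2 (0.05) or DMSO replicate 3 (0.03).

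Shares within a family differ in scaled fragments, which are not divided by length. The lysyl oxidase shares leave out Loxl4 here too. With DHTS they were 72.6% for P4ha1, 27.4% for P4ha2, 58.1% for Plod2, 31.2% for Plod3, 15.1% for Lox, 60.8% for Loxl2 and 6.12% for Loxl3. With DMSO they were 72.0% for P4ha1, 28.0% for P4ha2, 16.5% for Plod1, 44.7% for Plod2, 38.8% for Plod3, 21.1% for Lox, 55.9% for Loxl2 and 4.53% for Loxl3. Depth limits Loxl3, with 54 to 120 fragments per library, and P4ha3.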

Other observations

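Of 16 matched genes of other enzymes that use iron and 2-oxoglutarate, 14 were tested and 10 did not pass. Over all tested genes 5696 of 11416 did not pass. The class had 2 higher and 2 lower, beside 28.2% and 21.9% of all tested genes. Its median log2 fold change was −0.08, against 0.03 over all tested genes. On scaled fragments 2 were higher and 4 lower of 15, beside 33.9% and 28.6% of all genes tested on that unit. Egln3, a prolyl hydroxylase that marks HIF subunits for decay, rose to 43.8, 47.1 and 44.4 FPKM with DHTS, against 11.2, 13.2 and 12.8 FPKM with DMSO (log2 fold change 1.79, SE 0.07, adjusted p = 2.38e-06). Its relative Egln1 fell by 0.39 (12.8 ± 0.538 FPKM with DHTS and 17.1 ± 0.433 with DMSO, adjusted p = 0.0014). Ogfod2 (0.49, adjusted p = 0.0192, range over alternatives 7.9e-05 to 0.10) and the ribosomal protein hydroxylase gene Ogfod1 (−0.29, adjusted p = 0.0363, range 1.1e-05 to 0.129) passed, and each lost its call in several alternatives, without the filter on low values among them.

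Genes that supply ascorbate and iron had 5 of 6 tested, with 2 higher and 1 lower, beside 28.2% and 21.9% of all tested genes. Their median log2 fold change was 0.31. On scaled fragments 3 were higher and 1 lower, beside 33.9% and 28.6% of all genes tested on that unit. The ascorbate transporter gene Slc23a2 rose by 0.42 (9.73 ± 1.10 FPKM with DHTS and 6.996 ± 0.409 with DMSO, adjusted p = 0.0099). Slc39a13, a zinc transporter gene whose loss in humans causes a form of Ehlers-Danlos syndrome with poor collagen hydroxylation, rose by 0.37 (adjusted p = 0.0111), and this call was lost without the filter (adjusted p = 0.0608, range over alternatives 9.85e-06 to 0.0608). Slc11a2, an iron importer, fell by 0.72 (adjusted p = 0.00069). Of the HIF subunits, Arnt fell by 0.29 (adjusted p = 0.0215, range over alternatives 5.7e-07 to 0.0924). This call was lost without DHTS replicate 1, DMSO replicate 2 or DMSO replicate 3 and without the filter. Epas1 did not pass (log2 fold change −0.15, adjusted p = 0.214), and Hif3a was too low to test.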
